A study of Mus musculus with 4 samples.

Results

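Small RNAs of mouse testis that carry the name of a LINE family other than LINE1 were examined in knockdown and wild-type animals. LINEs (long interspersed nuclear elements) are retrotransposons that copy themselves through an RNA intermediate, and LINE1 (L1) is the family that still moves in mice. The members were chosen by annotation, without using their levels: sequences of 25 to 31 nt whose class in the table was LINE and whose family was not L1. They comprised 43 repeat names in 8 families (L2, CR1, RTE-X, RTE-BovB, Penelope, L1-Tx1, I-Jockey and Dong-R4), of 842 LINE, SINE and LTR names in all. They were read as 18031 distinct sequences of 3075975 in this length range, of which 5035 and 7822 occurred in knockdown replicates 1 and 2 and 6965 and 7168 in wild-type replicates 1 and 2. The study profiled small RNA by sequencing in 16-day-old testes of 2 groups, Hsf5 knockdown and wild type, with 2 libraries each, to look at piRNA expression. Heat shock factor 5 (HSF5) is a testis protein of the heat shock factor family of transcription factors. The labels name neither strain, allele nor agent, and the deposited table writes KO where the labels write knockdown, which is the word used here. Replicates are labelled as biological, with no word on shared litters or days.

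L2, CR1 (which includes the L3 names) and RTE elements are old. They spread early in mammalian evolution or before it, and the copies left in the mouse genome are short fragments that no longer move. PIWI proteins in male germ cells bind piRNAs, small RNAs that begin mostly with U. MILI holds the shorter piRNAs and MIWI the longer ones, and most piRNAs at the pachytene stage of meiosis are cut from long transcripts of a limited set of intergenic loci, which hold fewer transposon copies than the genome at large. In the ping-pong cycle, where one PIWI-bound RNA guides the cutting of an opposite strand, paired piRNAs overlap by 10 nt and the partner carries A at base 10.

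The 5 sequences with the highest mean level show what these reads are, and the first base is in capitals in each. All had exactly 1 exact match in the GRCm39 genome, and all lay in a piRNA locus of the table.
CR1_Mam, 26 nt, chr17:27560842-27560867, plus strand: Taaatactctgtgaggcttcctatgg
CR1_Mam, 25 nt, chr17:27560842-27560866, plus strand: Taaatactctgtgaggcttcctatg
CR1_Mam, 26 nt, chr17:27560942-27560967, plus strand: Tgacagcagggacctgagaagaattt
L2a, 30 nt, chr17:27563903-27563932, plus strand: Tagcacttatcattatctggacttaccccc
L2c, 30 nt, chr14:24134141-24134170, plus strand: Attcaacacacacttgttggtaacctctgg
The first was read at 711 and 195 reads per 1000000 counted reads (RPM) in knockdown replicates 1 and 2, against 506 and 392 RPM in the wild-type libraries. The second, which begins at the same base and is 1 nt shorter, stood at 675 and 182 RPM in the knockdown libraries, against 376 and 445 RPM in the wild-type libraries. Both were highest in one knockdown library and lowest in the other.

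The leading start sites of several of the most abundant names are shown with 20 bases of GRCm39 on either side, 5′ to 3′ on the strand of the reads. L3, which had more reads than L4_B_Mam, is not among them. Such a start held 61.5% of the 1-place reads of CR1_Mam but only 7.56% for L2c and 7.55% for L2b. Capitals mark the most abundant read that begins there.
CR1_Mam, chr17:27560822-27560887, plus strand: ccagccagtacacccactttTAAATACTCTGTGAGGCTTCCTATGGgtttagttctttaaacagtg
L2a, chr17:27563883-27563952, plus strand: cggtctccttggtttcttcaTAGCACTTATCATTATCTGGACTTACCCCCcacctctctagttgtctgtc
L2c, chr14:24134123-24134192, plus strand: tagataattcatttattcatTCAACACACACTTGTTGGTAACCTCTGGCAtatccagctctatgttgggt
L2, chr10:75693192-75693257, plus strand: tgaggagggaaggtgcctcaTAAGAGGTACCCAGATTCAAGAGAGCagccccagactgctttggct
L2b, chr2:92384969-92385036, plus strand: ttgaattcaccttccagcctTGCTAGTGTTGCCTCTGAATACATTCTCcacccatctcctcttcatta
L2d, chr7:73461703-73461771, minus strand: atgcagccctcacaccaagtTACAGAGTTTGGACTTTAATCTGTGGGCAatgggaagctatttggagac
L4_B_Mam, chr5:149727506-149727572, minus strand: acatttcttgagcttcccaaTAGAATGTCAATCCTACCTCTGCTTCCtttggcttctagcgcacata
The L2d start had 0 and 1795 reads in knockdown replicates 1 and 2, against 397 and 582 in the wild-type libraries. The L4_B_Mam start had 3 and 279 reads in the knockdown libraries, against 428 and 637 in the wild-type libraries. These 2 sites were almost silent in knockdown replicate 1 and well covered in the other 3 libraries. The leading L3 start was not low there, with 181 and 153 reads in knockdown libraries, against 153 and 229 in wild-type libraries.

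The knockdown libraries held 9619666 and 10900306 counted reads and the wild-type libraries 11117460 and 9260452, of which 4352106 and 7025053 (knockdown) and 5745703 and 5326809 (wild type) were 25 to 31 nt long. With 3 reads as the limit below which a name counts as undetected, the floor lay between 0.270 and 0.324 RPM. All 6 germ cell miRNAs listed as testis markers were detected in every library, at summed levels of 26317 and 28401 RPM in knockdown and 24603 and 20097 RPM in wild-type libraries. Of the 4 miRNAs listed for liver, muscle and blood, 3 were detected in every library, and mmu-miR-122-5p was under the floor in wild-type replicate 2 (0.108 RPM). The 4 had sums of 303 and 338 RPM in knockdown and 323 and 244 RPM in wild-type libraries. Small RNA does not measure Hsf5 messenger RNA: 21 and 24 reads in knockdown and 40 and 25 in wild-type libraries matched its exons. The knockdown libraries stood further apart than the wild-type ones, and the chi-square statistic of the members' counts, divided by its degrees of freedom, was 813 between the knockdown replicates and 114 between the wild-type replicates. Every comparison between groups below rests on 2 libraries against 2, for which an exact permutation test has 6 assignments and cannot go below p = 0.333. In whole testis, fewer cells of a type and less RNA per cell cannot be told apart.

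The members took about the same part of the 25 to 31 nt reads in both groups. They had 45877 and 60886 reads in knockdown libraries, against 50300 and 53920 in wild-type libraries. This was 1.05% (95% Wilson interval 1.04 to 1.06) and 0.867% (0.860 to 0.874) of 25 to 31 nt reads in knockdown replicates 1 and 2, against 0.875% (0.868 to 0.883) and 1.01% (1.004 to 1.021) in wild-type replicates 1 and 2. The libraries carry no molecular identifiers, so these intervals and the floor cover counting error only. The means were 0.960% ± 0.133 in knockdown and 0.944% ± 0.0967 in wild type (SD, n = 2 each), a difference of 0.0166 percentage points that is smaller than the spread within either group (exact two-sided permutation test, p = 1). The sign of that difference turned when knockdown replicate 1 or wild-type replicate 1 was left out. Members made up 26.5% and 20.8% of all LINE reads of this length in knockdown libraries, against 21.3% and 23.7% in wild-type libraries.

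L2 and CR1 held nearly all member reads. L2, a family spread over the genome in many short copies, gave 60.6% of them, at 2162 and 4058 RPM in knockdown libraries, against 2556 and 3712 RPM in wild-type libraries. CR1, a family first described in chicken, gave 36.0%, at 2561 and 1274 RPM in knockdown libraries, against 1818 and 1862 RPM in wild-type libraries. Knockdown replicate 1 was thus the lowest library for L2 and the highest for CR1, knockdown replicate 2 was the reverse, and the wild-type libraries lay between. RTE-X had 10.3 and 184 RPM in knockdown libraries, against 109 and 198 RPM in wild-type libraries. RTE-BovB had 33.0 and 67.3 RPM in knockdown libraries, against 37.5 and 47.2 RPM in wild-type libraries. The remaining 4 families were rare, with 56 reads over all libraries for Penelope, 45 for L1-Tx1, 14 for I-Jockey and 5 for Dong-R4.

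In the edgeR quasi-likelihood fit over 24 repeat families, 0 of the 8 member families were called at a Benjamini-Hochberg adjusted p under 0.05, and 0% of all families tested were. At an unadjusted p under 0.05 the edgeR fit also had 0 member families, while DESeq2 had 0 after adjustment and 1 before. The log2 change of knockdown over wild type was -0.02 for L2 (SE 0.33, adjusted p = 0.964), with a sign that turned under DESeq2 size factors. It was 0.21 for CR1 (SE 0.63), -0.84 for RTE-X (SE 1.14) and 0.22 for RTE-BovB (SE 0.58), each with the same adjusted p of 0.964. Among the rare families, 3 did not overlap between groups (3 of 8, where 25% of all families tested did not). I-Jockey had 1 and 2 reads in knockdown against 8 and 3 in wild-type libraries, L1-Tx1 8 and 5 against 16 and 16, and Dong-R4 2 and 2 against 1 and 0. Knockdown replicate 1 was under 25% of every other library for 1 of the 8, RTE-X, and for 4.17% of all families. Without wild-type replicate 2, edgeR called 0 members and 4.17% of all families. Of 12 other transposon families listed for comparison, 10 were in the table and 0 passed in either direction: 6 had a higher and 4 a lower estimate in knockdown, with a median log2 change of 0.03 and a range of -0.20 (Alu) to 1.29 (ID).

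**Figure D1:**
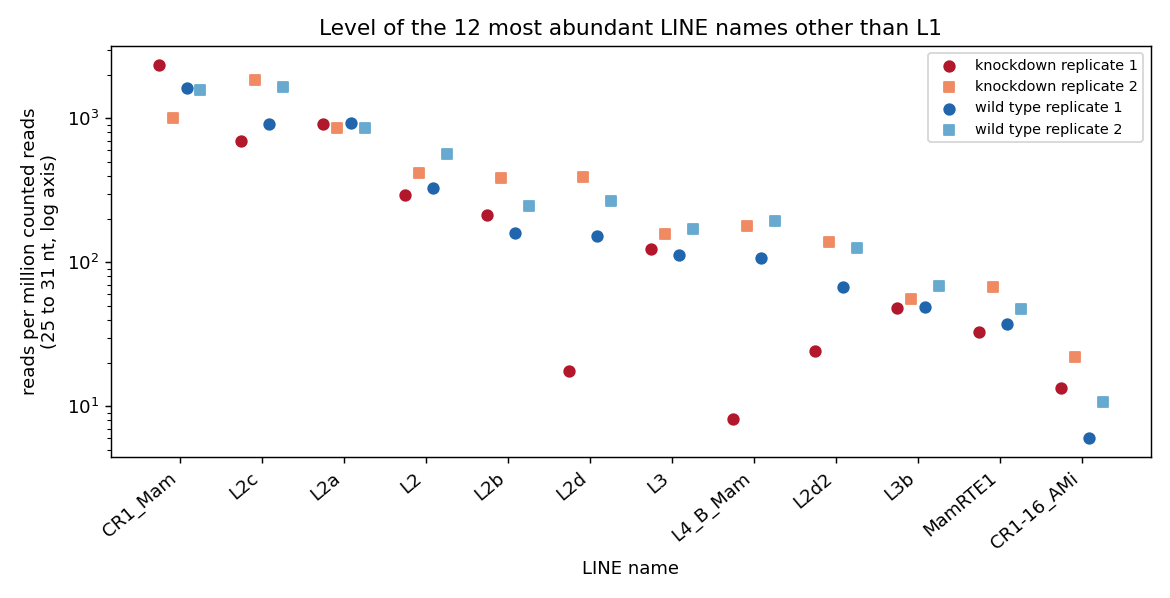
Level of the 12 LINE names other than L1 with most reads, in RPM of all counted reads on a log axis, with 1 point per library (red and orange, knockdown replicates 1 and 2; dark and light blue, wild-type replicates 1 and 2). Knockdown replicate 1 lies far below the other libraries for L2d (17.7 RPM) and L4_B_Mam (8.11 RPM) and above them for CR1_Mam (2361 RPM).

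By name, CR1_Mam alone gave 31.5% of all member reads. It stood at 2361 and 1012 RPM in knockdown libraries, against 1625 and 1577 RPM in wild-type libraries, so the knockdown libraries lay on either side of the wild-type pair. Its log2 change was 0.25 (SE 0.53, edgeR adjusted p = 0.996), and it became -0.89 without knockdown replicate 1. L2c had 701 and 1850 RPM in knockdown libraries, against 909 and 1644 RPM in wild-type libraries. L2a had the narrowest range of the 10 most abundant names relative to its level, at 907 and 861 RPM in knockdown libraries, against 929 and 854 RPM in wild-type libraries. The name L2 had 292 and 420 RPM in knockdown libraries, against 329 and 563 RPM in wild-type libraries. RPM is not divided by the number or length of a name's genomic copies, so levels of different names do not rank their copies.

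A set of 3 names was low in knockdown replicate 1 only. L2d had 17.7 and 393 RPM in knockdown libraries, against 151 and 267 RPM in wild-type libraries. L4_B_Mam, the main RTE-X name, had 8.11 and 179 RPM in knockdown libraries, against 107 and 193 RPM in wild-type libraries. L2d2 had 24.2 and 138 RPM in knockdown libraries, against 67.8 and 126 RPM in wild-type libraries. For each, knockdown replicate 2 lay near or above the higher wild-type library, and the groups overlapped. Their log2 changes were -0.19 (SE 1.54), -0.84 (SE 1.53) and -0.36 (SE 0.61) in that order, each with an edgeR adjusted p of 0.996. Knockdown replicate 1 was under 25% of the lowest other library for 3 of the 34 member names tested and for 4.16% of all names. These were L2d, L4_B_Mam and CR1-3_Croc. CR1-3_Croc had 1 and 15 reads in knockdown against 8 and 7 in wild-type libraries. L2d2 was not under this limit. X7B_LINE lay just above it, with 21 and 137 reads in knockdown against 111 and 123 in wild-type libraries.

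Of the 43 names, 34 passed the filter of 1 count per 1000000 repeat reads (CPM) in at least 2 libraries, and the remaining 9 were not tested. A total of 0 of the 34 were called at an adjusted p under 0.05 by edgeR over all 793 repeat names, where 0% of all names were called, and DESeq2 called 0 as well. At an unadjusted p under 0.05, edgeR had 3 member names and 2.02% of all names, and DESeq2 had 2 member names. The estimates were higher in knockdown for 13 and lower for 21 member names, with a median log2 change of -0.08 against -0.01 over all names. The CPM values of the groups did not overlap for 9 of the 34, where 23.7% of all names did not overlap, a share close to theirs.

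The names with the lowest p in each direction were mostly rare ones. Plat_L3, a CR1 name, had 17 and 38 reads in knockdown libraries, against 68 and 119 in wild-type libraries, with a log2 change of -1.81 (SE 0.50, edgeR unadjusted p = 0.00293, adjusted p = 0.996). Both knockdown values lay below both wild-type values, and 61.6% of its 1-place reads came from the locus 5-qF-14508, another locus almost without reads in knockdown replicate 1. CR1-16_AMi had 130 and 241 reads in knockdown libraries, against 67 and 99 in wild-type libraries, with a log2 change of 1.13 (SE 0.39, edgeR unadjusted p = 0.0124, adjusted p = 0.996), and both knockdown values lay above both wild-type values. X2_LINE had 0 reads in both knockdown libraries and 3 and 4 in wild-type libraries, too few for a fold change. L2b came after X8_LINE by p among the names with a higher estimate, at 213 and 383 RPM in knockdown libraries, against 159 and 248 RPM in wild-type libraries, with a log2 change of 0.57 (SE 0.39, adjusted p = 0.996). Its groups did not overlap in CPM but did in RPM. X8_LINE had 32 and 7 reads in knockdown against 8 and 9 in wild-type libraries, and X12_LINE, the only I-Jockey name tested, had a log2 change of -1.80 (SE 1.11, adjusted p = 0.996). Without knockdown replicate 1, edgeR called 1 member name, Plat_L3 (adjusted p = 0.0352), among 1.03% of all names. Without knockdown replicate 2 it called 6 among 6.79% of all names: L2d (-3.21), L2d2 (-1.65), L4_B_Mam (-3.85), Plat_L3 (-2.06) and X7B_LINE (-2.07) lower and X8_LINE (2.30) higher in the remaining knockdown library, which is then assumed to vary like the others. Without either wild-type library, 0 were called.

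Most member reads matched a single place in the genome. Exact matching placed 88.9% and 85.2% of their reads in knockdown libraries and 85.4% and 83.8% in wild-type libraries at exactly 1 position, against 58.7% for L1 over all libraries. No exact match was found for 9.21% and 11.8% of member reads in knockdown libraries and for 12.2% and 13.5% in wild-type libraries. The 1-place reads began at 7606 distinct positions, and 17 of these positions held 50% of the reads. The CR1_Mam start shown first, at base 27560842 of chromosome 17, held 20.5% of them alone, with 13910 and 4466 reads in knockdown libraries, against 10427 and 8219 in wild-type libraries. The 10 leading starts together held 42.8%.

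Most 1-place member reads lay inside piRNA loci. The table names 214 piRNA loci, which cover 0.327% of the genome, and 153 of them had at least 1 member read. They held 95.3% and 95.2% of the 1-place member reads in knockdown libraries, against 93.8% and 96.0% in wild-type libraries, a difference of 0.322 percentage points between group means (exact two-sided permutation test, p = 1). Counted as distinct sequences the share was lower, at 66.3% and 70.9% in knockdown and 63.8% and 76.4% in wild-type libraries. Of the member reads in loci, between 99.7% and 99.8% in each library lay on the strand of the locus with most reads. The strand relative to the element itself was not analysed here.

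The share inside loci was higher for the members than for L1, LTR and MIR reads in every library. All other 1-place reads of this length stood at 83.8% and 85.5% in knockdown libraries and 75.3% and 86.4% in wild-type libraries. L1 reads stood at 80.8% and 84.2% in knockdown and 73.0% and 84.8% in wild-type libraries, and reads of MIR, a SINE of similar age, at 87.6% and 92.4% in knockdown and 87.3% and 93.4% in wild-type libraries. The mean difference was 12.3 percentage points to all other reads, 14.4 to L1, 7.39 to LTR and 4.88 to MIR. Without CR1_Mam the members stood at 90.4% and 94.1% in knockdown and 89.998% and 94.4% in wild-type libraries, nearer to LTR and MIR but still above both in every library. Each difference with CR1_Mam had the same sign in 4 of 4 libraries, for which the exact two-sided sign-flip test gives p = 0.125, the smallest that 4 libraries allow (0.154 after Benjamini-Hochberg adjustment over 16 such differences). Within the loci themselves members were a small part of the output, 1.27% of all 1-place reads, and in the 44 loci with at least 50 member reads their part ranged between 0.0290% and 13.0% with a median of 0.857%.

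**Figure D2:**
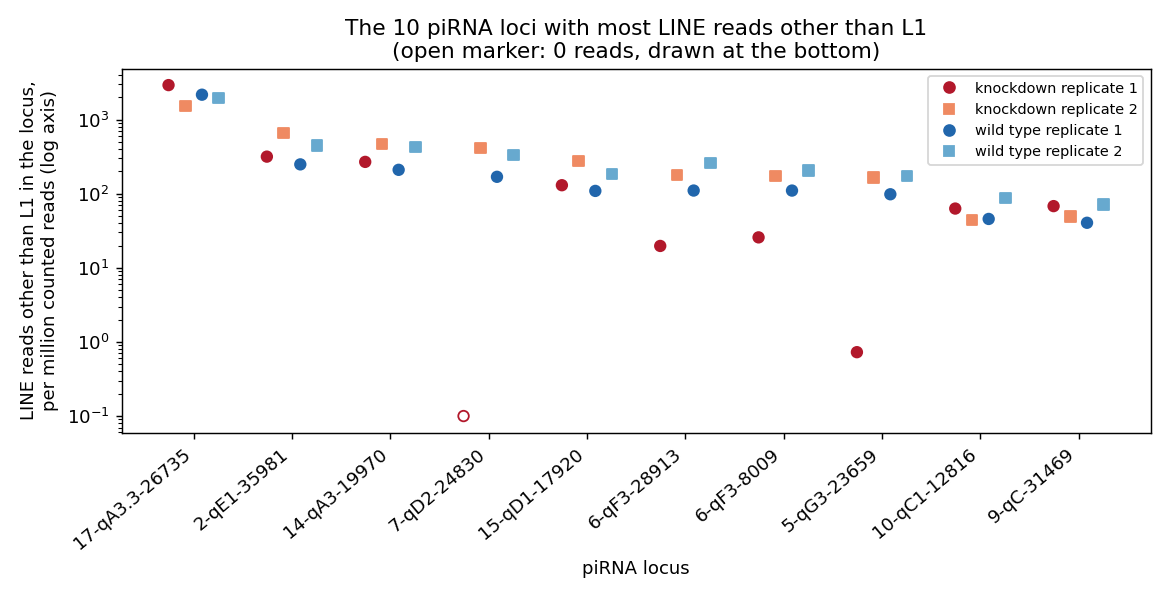
Member reads in the 10 piRNA loci that hold most of them, in RPM on a log axis, with 1 point per library (colours as in the plot of names; an open marker is 0 reads). Knockdown replicate 1 is highest at 17-qA3.3-26735 (2925 RPM) and has 0 reads at 7-qD2-24830.

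A single locus on chromosome 17 supplied 48.1% of the 1-place member reads. This was 17-qA3.3-26735, at chr17:27544171-27586457 on the plus strand, with 2925 and 1523 member RPM in knockdown libraries, against 2171 and 1961 RPM in wild-type libraries. Knockdown replicate 1 was the highest and knockdown replicate 2 the lowest. Without CR1_Mam it still gave 22.4% of the rest. The locus 2-qE1-35981 followed with 9.54% (317 and 665 RPM in knockdown, 249 and 451 RPM in wild-type libraries) and 14-qA3-19970 with 7.73% (269 and 467 RPM in knockdown, 210 and 427 RPM in wild-type libraries). At both, replicate 2 was the higher library of either group. The locus 7-qD2-24830 had 0 and 412 RPM in knockdown libraries, against 169 and 332 RPM in wild-type libraries, and 5-qG3-23659 had 0.728 and 166 RPM in knockdown libraries, against 98.4 and 173 RPM in wild-type libraries.

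Of the 12 most abundant names, 8 drew over 50% of their 1-place reads from 1 locus. CR1_Mam reads with 1 place came to 99.7% from 17-qA3.3-26735, and its leading start gave 61.5% of them. L2a drew 74.3% from the same locus. L2d drew 87.0% from 7-qD2-24830, L4_B_Mam 93.3% from 5-qG3-23659, L2d2 79.6% from 6-qF3-28913, L2b 73.3% from 2-qE1-35981 and L3 50.5% from 9-qC-31469. The names L2 and L2c were spread more widely, L2 with 27.6% from 6-qF3-28913 and reads in 81 loci, and L2c with 31.6% from 14-qA3-19970 and reads in 36 loci. MamRTE1, which made up RTE-BovB but for 1 read, had the lowest share inside loci among the 12 most abundant names, 69.4%. CR1-16_AMi drew 98.9% from 2-qE1-35981.

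In knockdown replicate 1, the loci that lacked member reads also lacked their other reads. Among the 44 loci with at least 50 member reads, 12 had a member RPM in knockdown replicate 1 that did not reach 5% of the smallest value among the other libraries, and the reads of the locus without members were under the same limit at the same 12. Across the 44 loci, the log2 ratio of member reads in knockdown replicate 1 to the mean of the other libraries had a Pearson correlation of 0.853 with that of the other reads, and the ratio of knockdown replicate 2 to the wild-type mean one of 0.406; these loci share their libraries, and the values are a description. Over all 214 loci and all their 1-place reads, 14% were below that limit. Member reads in the 12 loci summed to 1.25 and 787 RPM in knockdown libraries, against 382 and 725 RPM in wild-type libraries. Outside them they summed to 4240 and 3971 RPM in knockdown libraries, against 3483 and 4156 RPM in wild-type libraries. Outside these loci knockdown replicate 1 had the highest sum of the 4 libraries. The 12 loci were picked by their level in that library, so the sums are a description.

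The same split is given for L2d and L4_B_Mam, where the low values inside the 12 loci follow from how these loci were picked. Inside the 12 loci L2d had 0 and 330 RPM in knockdown libraries, against 112 and 210 RPM in wild-type libraries. Outside them it had 15.6 and 10.3 RPM in knockdown libraries, against 12.2 and 17.3 RPM in wild-type libraries. L4_B_Mam had 0.520 and 145 RPM inside in knockdown libraries, against 86.4 and 156 RPM in wild-type libraries, and 6.86 and 11.7 RPM outside in knockdown libraries, against 4.59 and 4.86 RPM in wild-type libraries. L2d2 differs: only 2.30% of its 1-place reads lay in the 12 loci, and its main locus 6-qF3-28913 was reduced but not silent in knockdown replicate 1, with 19.8 and 179 member RPM in knockdown libraries, against 110 and 259 RPM in wild-type libraries. Its neighbour on the other strand, 6-qF3-8009, had 25.8 and 174 RPM in knockdown libraries, against 110 and 205 RPM in wild-type libraries. Knockdown replicate 2 did not share these low values, and their cause was not tested.

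**Figure D3:**
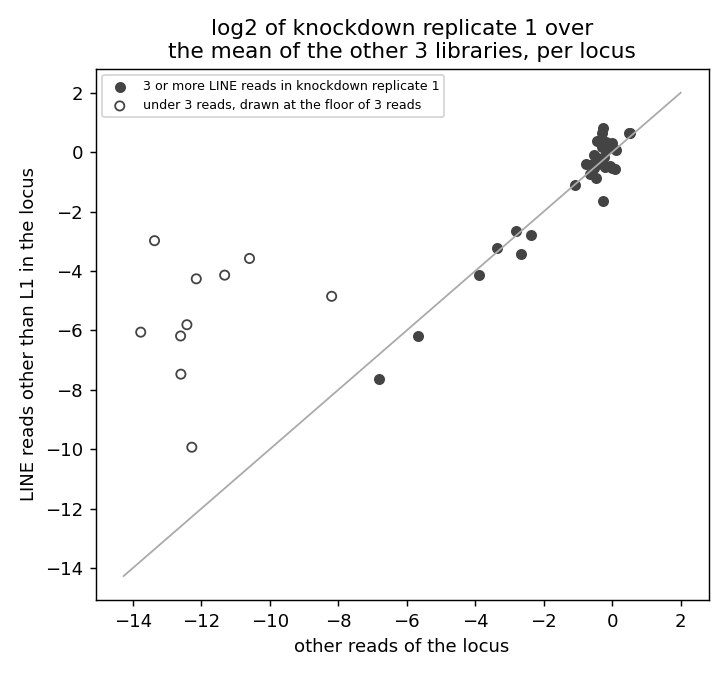
Log2 ratio of knockdown replicate 1 over the mean of the other 3 libraries for each of the 44 loci with at least 50 member reads, with member reads on the vertical and all other 1-place reads of the locus on the horizontal axis; values under 3 reads are set to 3 reads. The 10 loci with under 3 member reads in knockdown replicate 1 (open points) are also low in all other reads, and 12 of 44 are under the 5% limit for both.

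In the annotation, 6 of the 8 leading places lay mostly in introns of long noncoding RNAs (lncRNAs). Places were formed by joining 1-place reads less than 2000 bases apart, which gave 3438 places, 330 of them in loci, and the 8 largest held 74.0% of the reads. The largest, chr17:27546265-27569644, had 79.2% of its reads in introns of Gm10505 (lncRNA) and 0.0892% in its exons. The second and the eighth, chr14:24133912-24134380 and chr14:24141814-24145240, were intronic in Gm52992 on the same strand. The third and the fifth, chr2:92377782-92380791 and chr2:92383095-92385708, overlapped no annotated gene. The fourth, chr15:59128869-59130266, lay in an intron of Gm36617 on the opposite strand. The sixth, chr7:73460934-73468695, was intronic in Gm10619 on the same strand, and the seventh, chr6:127790457-127794795, in Gm40402 on the same strand. The seventh and the eighth also lay in introns of a lncRNA on the opposite strand. Member reads were 36.7% of all 1-place reads at the chromosome 15 place, 27.3% at the first chromosome 2 place, and 4.02% at the chromosome 17 place. Places are bounded by member reads, so a high share is partly built in. Over the whole loci the members were 2.66% at 15-qD1-17920, 2.14% at 2-qE1-35981 and 2.88% at 17-qA3.3-26735.

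**Figure D4:**
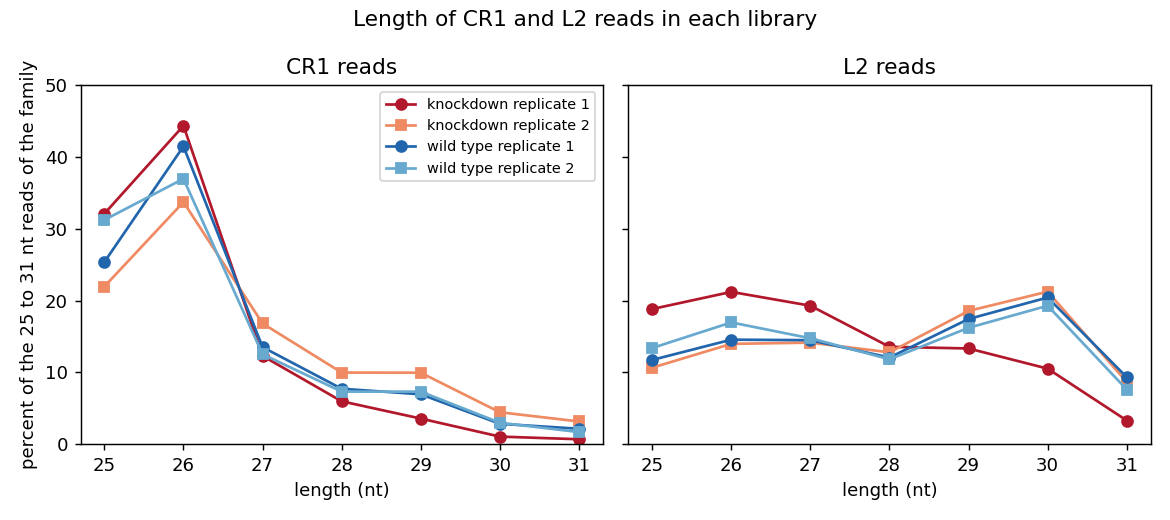
Percent of the 25 to 31 nt reads of each family at each length, CR1 on the left and L2 on the right, with 1 line per library (colours as in the plot of names). CR1 peaks at 26 nt in all 4 libraries, and L2 has a peak at 30 nt in knockdown replicate 2 and both wild-type libraries (21.2%, 20.4% and 19.3%) that is lower in knockdown replicate 1 (10.5%).

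Lengths differed between the families. Reads of 29 to 31 nt made up 27.1% and 48.4% of L2 in knockdown libraries, against 47.2% and 43.1% in wild-type libraries, and 5.33% and 17.6% of CR1 in knockdown libraries, against 11.95% and 12.003% in wild-type libraries. CR1 was shorter than L2 in 4 of 4 libraries, by a mean of 29.7 percentage points of reads (exact sign-flip p = 0.125). Over distinct sequences 29 to 31 nt made up 25.4% and 32.4% of CR1 in knockdown and 31.7% and 28.3% in wild-type libraries, against 21.3% and 35.02% of L2 in knockdown and 32.1% and 33.0% in wild-type libraries, so the families lay close together and knockdown replicate 1 had the opposite sign. The leading CR1_Mam start was made of short reads: 25 and 26 nt took 42.6% and 50.4% in knockdown replicate 1, 40.7% and 48.7% in knockdown replicate 2, 36.4% and 53.4% in wild-type replicate 1 and 45.7% and 46.1% in wild-type replicate 2. The leading L2a start, by contrast, gave 80.3% and 75.7% of 29 to 31 nt reads in knockdown libraries, against 89.1% and 80.6% in wild-type libraries.

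Knockdown replicate 1 had shorter member reads than the others. Of all member reads, 15.3% and 40.9% were 29 to 31 nt long in knockdown libraries, against 32.7% and 32.9% in wild-type libraries, with means of 28.1% ± 18.1 and 32.8% ± 0.142 (SD, n = 2 each; exact two-sided permutation test, p = 1). The knockdown libraries lay on either side of the wild-type pair, and without knockdown replicate 1 the difference turned to 8.10 percentage points. Knockdown replicate 1 was also lowest and knockdown replicate 2 highest for L1, with 15.2% and 33.4% in knockdown and 30.1% and 28.4% in wild-type libraries, and for reads named as piRNA cluster, with 12.7% and 34.7% in knockdown and 30.1% and 29.6% in wild-type libraries. It was also seen at single starts. Among 98 starts with at least 20 reads in every library, the mean length was lowest in knockdown replicate 1 at 58 and in knockdown replicate 2 at 11, and it was lowest in wild-type replicate 1 at 6 and in wild-type replicate 2 at 18. The medians over these starts were 26.98 and 27.41 nt in knockdown libraries, against 27.52 and 27.30 nt in wild-type libraries. The window of 25 to 31 nt also cut the members: reads of 24 nt numbered 5672 and 5504 in knockdown and 5666 and 5347 in wild-type libraries, and reads of 32 nt 236 and 1918 in knockdown and 1113 and 1096 in wild-type libraries.

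**Figure D5:**
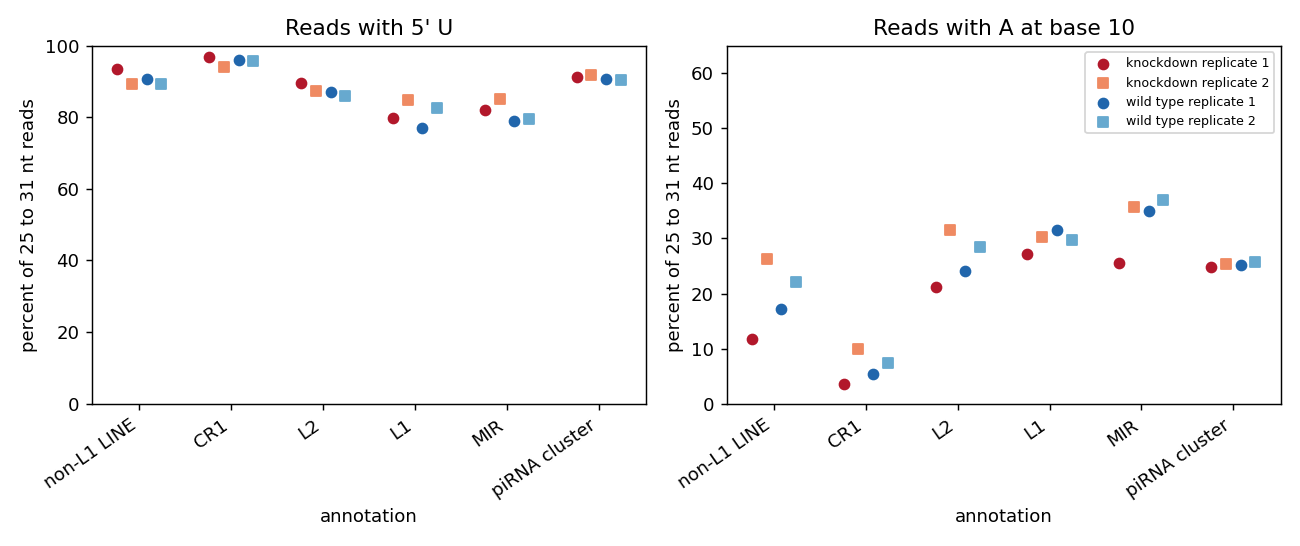
Percent of 25 to 31 nt reads that begin with U (left) and that have A at base 10 (right), for the members, their families CR1 and L2, and L1, MIR and piRNA cluster reads, with 1 point per library (colours as in the plot of names). By reads, many of which come from 1 CR1_Mam start, CR1 lies highest for 5′ U (94.0 to 97.0%) and lowest for A at base 10 (3.62 to 9.83%).

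Most member reads began with U, the base typical of piRNAs. The share was 93.5% and 89.4% in knockdown libraries, against 90.8% and 89.4% in wild-type libraries, a difference of 1.36 percentage points between group means (exact two-sided permutation test, p = 1). It lay 9.68 percentage points above L1 and 9.29 above MIR on average, higher in 4 of 4 libraries for each (exact sign-flip p = 0.125, adjusted 0.154), and 0.259 below piRNA cluster reads (p = 0.75). CR1 began with U in 97.0% and 94.0% of reads in knockdown and 95.9% and 95.7% in wild-type libraries. L2 stood at 89.6% and 87.5% in knockdown and 87.1% and 85.9% in wild-type libraries. By distinct sequences CR1 and L2 lay close together. CR1 then had 77.1% and 78.1% in knockdown and 74.5% and 76.2% in wild-type libraries. The values for L2 were 75.8% and 77.6% in knockdown and 74.6% and 76.0% in wild-type libraries. Over distinct sequences the share for all members was 76.2% and 78.2% in knockdown and 74.9% and 76.5% in wild-type libraries. L1 stood at 71.1% and 77.4% in knockdown and 69.9% and 73.7% in wild-type libraries by this count, and MIR at 75.3% and 78.1% in knockdown and 74.1% and 75.3% in wild-type libraries. The members' lead over L1 was thus smaller over distinct sequences, and over MIR it was small.

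A at base 10 was less frequent in the members than in L1, and by reads the gap was smaller without CR1_Mam. It stood at 11.7% and 26.3% of member reads in knockdown libraries, against 17.1% and 22.1% in wild-type libraries, with group means 0.636 percentage points apart (exact two-sided permutation test, p = 1). The share was 10.4 percentage points lower than in L1 on average, lower in 4 of 4 libraries (exact sign-flip p = 0.125). Without CR1_Mam the members stood at 21.6% and 31.5% in knockdown and 25.8% and 29.7% in wild-type libraries, against L1 at 27.1% and 30.2% in knockdown and 31.6% and 29.8% in wild-type libraries, so that knockdown replicate 2 lay above L1. Among reads that did not begin with U, A at base 10 was more frequent in the members than in L1 when weighted by reads. The members had 37.2% and 50.7% in knockdown and 42.5% and 52.0% in wild-type libraries. L1 had 30.5% and 42.0% in knockdown and 39.1% and 40.9% in wild-type libraries. Over distinct sequences that did not begin with U, the order was the reverse in 4 of 4 libraries. The members then had 28.25% and 32.8% in knockdown and 30.7% and 33.6% in wild-type libraries. The values for L1 were 35.3% and 42.0% in knockdown and 38.5% and 39.5% in wild-type libraries. Over all its reads, its leading start included, CR1 had A at base 10 in 3.62% and 9.83% in knockdown and 5.39% and 7.33% in wild-type libraries. Without that start, 1-place member reads of all families had 17.2% and 29.2% in knockdown libraries, against 22.2% and 27.0% in wild-type libraries. By distinct sequences CR1 was nearer to L2, at 18.2% and 24.7% in knockdown and 23.2% and 22.8% in wild-type libraries. L2 then had 23.7% and 27.2% in knockdown and 25.1% and 26.8% in wild-type libraries.

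L2d2 was unlike the other abundant names. Only 59.2% and 42.3% of its reads began with U in knockdown libraries, against 44.3% and 41.8% in wild-type libraries, and 31.8% and 67.9% had A at base 10 in knockdown libraries, against 54.6% and 66.0% in wild-type libraries. Its leading start, shown with the first base and base 10 in capitals, had 8 and 339 reads in knockdown libraries, against 114 and 268 in wild-type libraries.
L2d2, chr6:127790630-127790658, plus strand: AggatgagtAgggatttggtcacttaaga
RTE-X, by contrast, combined a high share of 5′ U (89.9% and 98.0% in knockdown, 97.8% and 96.8% in wild-type libraries) with A at base 10 in 25.3% and 30.2% of reads in knockdown libraries, against 47.5% and 45.3% in wild-type libraries. Both knockdown values for RTE-X lay below both wild-type values, but the family had only 99 reads in knockdown replicate 1. Over distinct sequences the gap was smaller, at 25.5% and 23.2% in knockdown, against 31.3% and 29.2% in wild-type libraries. The leading L4_B_Mam start has A at base 10 and weighs on the count by reads. It had 279 reads where RTE-X had 2011 in knockdown replicate 2. In wild-type libraries it had 428 and 637 where RTE-X had 1216 and 1831.

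Few start sites had a partner on the opposite strand with a 10 nt overlap, but these included abundant ones. Of the 7606 member starts, 2.12% had a 1-place read of any name on the other strand whose 5′ end lay 10 nt inside, against at most 1.49% and a median of 1.29% for the other overlaps of 1 to 20 nt. The share of starts was 1.31% for L1 against a median of 0.699% at the other overlaps, and 3.03% for MIR against a median of 1.91%. Weighted by reads, starts with such a partner held 26.4% of the member reads, against a median of 1.24% at the other overlaps. This was 59.0% against 1.42% for CR1 and 7.94% against 0.945% for L2. For MIR it was 24.3% against 3.93%, near the share of the members, and for L1 11.6% against 2.06%. The leading CR1_Mam start, with 37022 reads, is counted among these through 10 reads on the opposite strand. This start alone held 20.5% of the 1-place member reads and 37022 of the 66262 1-place CR1 reads. It thus made up most of the 26.4% for the members and of the 59.0% for CR1. Starts near each other share transcripts and libraries, so these shares are a description and were not tested.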

How the data were processed

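Small RNA of 4 libraries was read from 1 deposited table without header, which lists a sequence, its length, its count, a name, family and class, the library and a scaling factor. The counts are the authors' raw counts of each sequence per library, not normalized. The last column is the authors' ratio of 1000000 to the mature miRNA reads of the library, as tested on the table, and served only in 1 alternative. The submitters' processing notes name cutadapt and mm39, and no tool for mapping or annotation is named there. Per the labels' protocols, size selection kept inserts between 18 and 40 bases. A sequence on several lines of a library was counted once, under the name with most reads over the libraries. Names with equal reads were settled by alphabetical order, class first. The alternative with names as deposited used the same order and does not check it. Sequences of 25 to 31 nt were matched exactly, both strands, to GRCm39 (the same assembly as mm39). piRNA loci are the spans written in the table's names, and genes are from GENCODE. Differences between groups of single values were tested by exact permutation. Counts per name and family of all repeats with at least 1 CPM in at least 2 libraries were fitted with edgeR 4.0.16 (TMM, robust quasi-likelihood, Benjamini-Hochberg at 0.05) in R 4.3.3, with DESeq2 1.42.0 as an alternative, and scripts were tested on simulated data. Other steps used Python 3.11.15, numpy 2.4.6, pandas 2.3.3 and scipy 1.17.1. miRNA sequences are from RefSeq (GRCm38.p6). The text names every family, the 10 names with the highest mean RPM, the 3 with the lowest p in each direction, the 5 leading sequences and the 8 leading places; X7B_LINE, CR1-3_Croc and a few loci were named after their values were seen. The members and lists were chosen with earlier results of these data known. Of the comparison families, the DNA transposons hAT-Charlie and TcMar-Tigger are not used here. P-values measure only the spread between these libraries. With 2 libraries per group, a count of 0 called does not show that levels were equal.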

Additional observations from a re-analysis of the deposited data

How the results depend on the processing

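With 2 libraries per group, most signs depended on single libraries, and 0 member names and 0 member families were called in all alternatives except 2: 1 name was called without knockdown replicate 1 and 6 without knockdown replicate 2, so that leaving out 1 library gave 0 to 6 names and 0 families. The level difference of 0.0166 percentage points became -0.0286 without CR1_Mam, -0.00363 over reads of all lengths and -3683 reads per 1000000 mature miRNA reads, and ranged between -0.0771 and 0.110 when 1 library was left out. Leaving out 1 library gave -17.5 to 8.10 points for 29 to 31 nt reads, -0.721 to 3.43 for 5′ U, -7.95 to 6.68 for A at base 10 and -0.802 to 1.45 for the share in loci, which was -1.502 over distinct sequences. Among log2 changes, leaving out 1 library turned the sign of CR1_Mam (-0.89 to 0.88), L3 (-0.13 to 0.28), L3b (-0.29 to 0.0614), X8_LINE (-0.59 to 2.30), L2 (-0.54 to 0.0421), L2a (-0.28 to 0.34), L2c (-0.51 to 0.34), L2d (-3.21 to 0.71), L2d2 (-1.65 to 0.31) and L4_B_Mam (-3.85 to 0.0611). The same held for the families CR1 (-0.76 to 0.87), L2 (-0.15 to 0.16), Penelope (-0.60 to 0.76) and RTE-X (-3.49 to 0.0617). With DESeq2 size factors L2 was 0.0396 and Penelope 0.000382, and DESeq2 itself gave 0.0397 for L2. The cause of these turns was not tested. Leaving out the leading start, an alternative chosen after seeing the data, was run for the shares of 29 to 31 nt, 5′ U and A at base 10 and turned none of these. With the replicate number as a block, 0 member names were called and 1 of all names; CR1_Mam was then -9.95e-05 and Penelope 0.0421. Deviations of same-numbered libraries correlated at 0.240 over names and 0.518 over families, but with only 2 pairs and no word in the labels on what a number shares, the numbers were not taken as pairs. Names with under 3 reads in a library lie below its floor, and the rare families rest on such counts.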

Other observations

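Reads of 20 to 24 nt with the same names, outside the length range described above, numbered 29978 and 25006 in knockdown libraries, against 29452 and 25392 in wild-type libraries. A part of them matched miRNA hairpins: the first 18 bases lay in a RefSeq miRNA hairpin for 11.5% and 8.50% of these reads in knockdown libraries and for 12.8% and 10.3% in wild-type libraries. The hairpin table is not complete. Between 25 and 31 nt the share was 0.122% and 0.0509% in knockdown and 0.159% and 0.102% in wild-type libraries. The 3 miRNAs with the highest counts, 22.5%, 11.99% and 9.69% of the hairpin reads, are shown as RefSeq lists them, with the seed (bases 2 to 8) in capitals.
mmu-miR-125a-5p: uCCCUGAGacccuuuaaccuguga
mmu-miR-339-5p: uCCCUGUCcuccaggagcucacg
mmu-miR-1839-5p: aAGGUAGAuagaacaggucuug
Reads in mmu-miR-125a-5p were named L2 and stood at 85.8 and 22.2 RPM in knockdown libraries, against 90.9 and 66.95 RPM in wild-type libraries. Reads in mmu-miR-1839-5p were named L2b and stood at 19.4 and 51.3 RPM in knockdown libraries, against 21.05 and 19.4 RPM in wild-type libraries. Both had their extreme in knockdown replicate 2, the first low and the second high, and neither was tested.

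At the leading CR1_Mam start, reads that share its first 20 bases but had no exact match in the genome made up 9.24% and 8.56% in knockdown libraries, against 9.57% and 9.40% in wild-type libraries. The most abundant of them is shown with its first base in capitals.
CR1_Mam, 26 nt, no exact match: Taaatactctgtgaggcttcctatgt
It stood at 81.2 and 19.4 RPM in knockdown libraries, against 39.8 and 52.4 RPM in wild-type libraries, the same order of libraries as the most abundant matching read but for the wild-type pair.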
